A study of Homo sapiens with 4 samples.

Results

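The genes described here encode nidogens, laminins, collagens, the proteases that cut extracellular matrix with their inhibitors, and a few other matrix proteins. They were chosen by symbol from a list of 50 genes, and 48 of them had a transcript cluster of their own among the 18417 genes measured. LAMA3 and COL17A1 were not analysed here. The list was drawn up with earlier results of these data known, among them the differences of NID2, COL5A2, COL12A1 and THSD4.

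RNA came from OVCAR-3 cells, a long-established line of human ovarian carcinoma. One set of cells is labelled as overexpressing human histone H1.3, a linker histone, and the control cells had received vectors without H1.3. Each group has 2 one-colour arrays called biological replicates, cells of both groups grew in the same medium with serum, and the labels do not say whether a line was a clone or a pool, or which promoter drove the insert. An (H) after H1.3 in the array titles is not explained in the sources used here.

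A basement membrane is the thin sheet of matrix on which epithelial cells rest. Laminin trimers and type IV collagen each form a network, and nidogens and the proteoglycan perlecan bridge them, while fibrillar collagens build the stroma beneath. Matrix metalloproteinases and the plasminogen system cut these proteins, TIMPs and serpins hold the enzymes in check, and ovarian carcinoma cells are known to remodel mesothelial and stromal matrix when they spread in the peritoneum.

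The gene for H1.3 itself, H1-3, did not bear out the label. It measured 7.47 and 7.69 (log2 level) in the arrays labelled H1.3 and 8.65 and 7.88 in the vector-only arrays (difference -0.69 ± 0.24, adjusted p 0.319 in limma). Its size depended on the controls, at -0.30 without the first vector-only array and -1.07 without the second. No source used here says whether its probes lie in the carried sequence, so directions below refer to the arrays labelled H1.3. Array medians ran from 6.21 to 6.27 over all transcript clusters. Of 14 ovarian epithelial markers, including EPCAM, PAX8, WT1 and MUC16, 13 lay above the median level of the named clusters (6.84) and ESR1 lay below it. Of the markers of other cell types that make matrix or proteases, 9 of 10 for fibroblasts, 10 of 10 for endothelium and 9 of 9 for leukocytes lay below that median.

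All values are log2 levels as deposited, and a difference is the mean of the arrays labelled H1.3 minus the mean of the vector-only arrays, with its standard error. Unless stated otherwise an adjusted p is from limma with Benjamini-Hochberg adjustment over 21214 named clusters, and a gene is said to have risen or fallen at an adjusted p under 0.05. Probes differ in brightness, so levels are compared within a gene and not between genes.

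Of the 48 genes, 3 rose, 1 fell and 44 did not pass. NID2 rose 6.04-fold, COL5A2 3.04-fold and COL12A1 2.28-fold, and THSD4 fell 4.27-fold. Over all clusters tested 0.24% were higher and 0.264% lower, but these 4 genes were known to pass when the list was made, so nothing is read from the share. The median difference of the 48 was 0.03, against 0.02 over all clusters. The arrays of both groups did not overlap for 13 genes in the higher direction and 10 in the lower, against 21.2% and 19.4% of all clusters, which is 27.1% and 20.8% of the genes described here. Leaving out 1 array leaves 1 array in a group, so such fits cannot show whether a call holds. In them the differences kept their sign, at 2.36 to 2.83 for NID2 and -2.28 to -1.91 for THSD4. They ran from 1.40 to 1.81 for COL5A2 and from 0.95 to 1.44 for COL12A1.

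**Figure D1:**
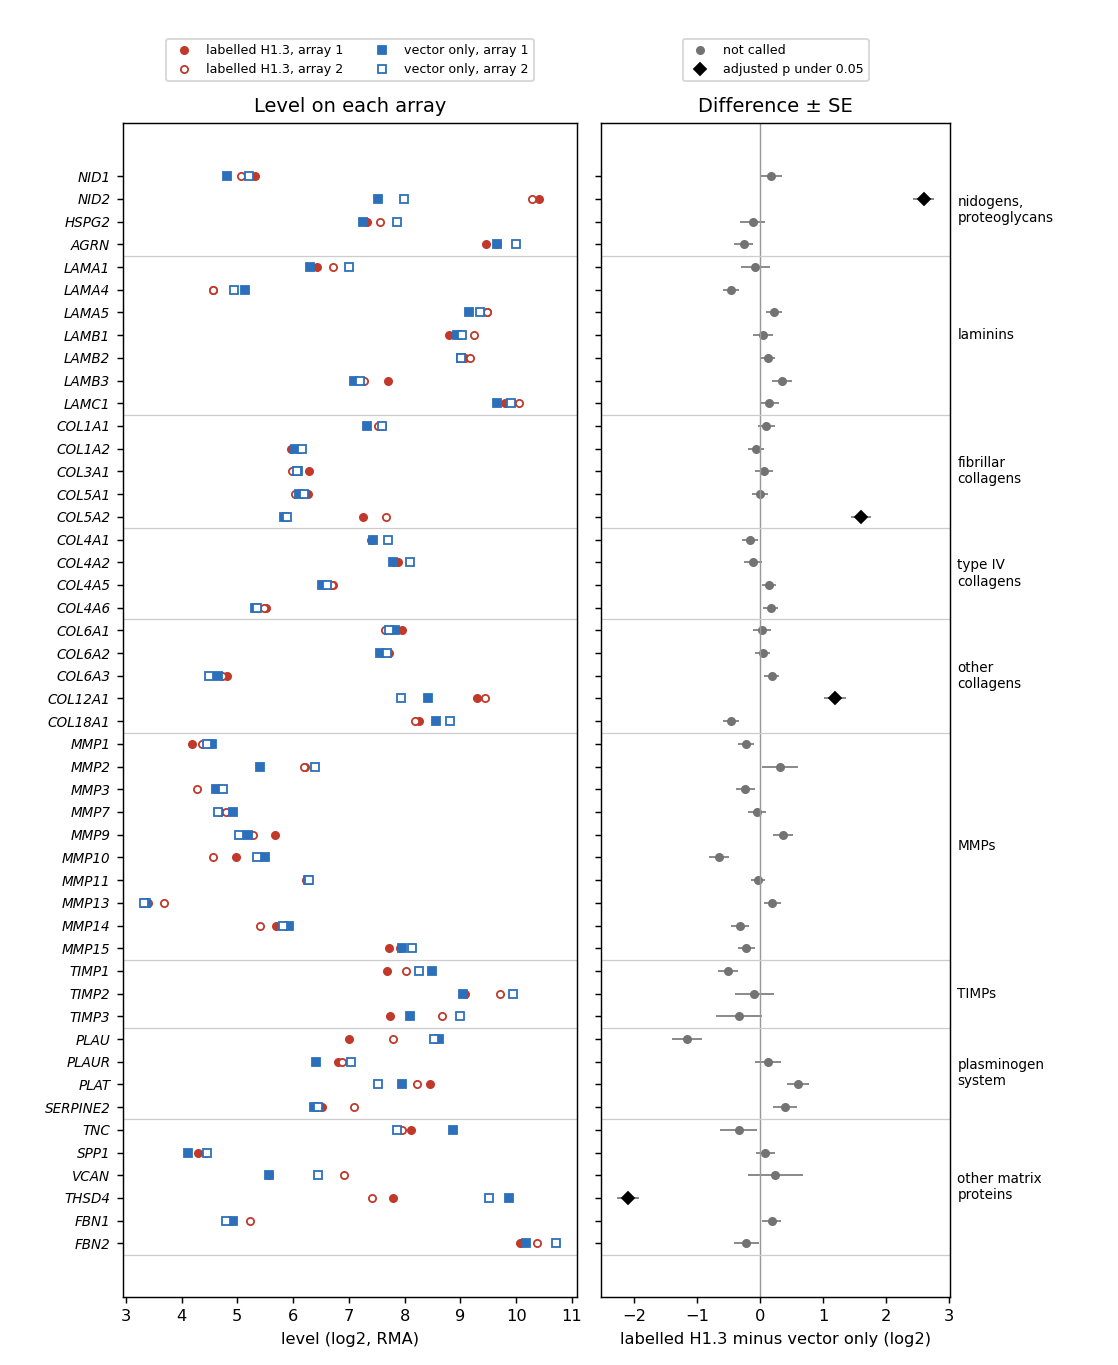
Log2 level of each of the 48 genes on each array (left; circles, arrays labelled H1.3; squares, vector-only arrays; filled, array 1; open, array 2) and the difference between the groups with its standard error (right). NID2, COL5A2, COL12A1 and THSD4, drawn as diamonds, passed at an adjusted p under 0.05, and most other differences lie near 0.

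NID2, which encodes nidogen 2, was the most changed of these genes. It measured 10.41 and 10.29 in the arrays labelled H1.3 and 7.52 and 7.99 in the vector-only arrays. The groups lay far apart, by 2.60 ± 0.17 with an adjusted p of 0.00539 and a 95% interval that began at 2.19. NID1, the other nidogen, measured 5.31 and 5.07 in the arrays labelled H1.3 and 4.82 and 5.21 in the vector-only arrays. These values overlapped (difference 0.17 ± 0.16, adjusted p 0.771), and the 95% interval, -0.21 to 0.56, lies wholly below that of NID2, although the difference between the 2 genes was not tested. The NID1 cluster was dim, below the median level of the named clusters on every array. HSPG2, which encodes perlecan, differed by -0.12 ± 0.20, and AGRN, which encodes the heparan sulfate proteoglycan agrin, by -0.26 ± 0.15. In both the groups overlapped.

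The promoter windows of the paralogs NID2 and NID1, and of COL12A1, the other gene that rose and has an entry in the RefSeq promoter table, are shown so that the changed genes can be set beside a relative that did not pass. Each runs from 250 bases before to 50 bases after a transcript start in GRCh38.p14, 5′ to 3′ on the gene's strand. They lie at chr14:52069010-52069309 (minus strand) for NID2, chr1:236065041-236065340 (minus) for NID1 and chr6:75206004-75206303 (minus) for COL12A1. Capitals mark each GC box (GGGCGG) and CCAAT box (CCAAT) found on either strand.
NID2 promoter: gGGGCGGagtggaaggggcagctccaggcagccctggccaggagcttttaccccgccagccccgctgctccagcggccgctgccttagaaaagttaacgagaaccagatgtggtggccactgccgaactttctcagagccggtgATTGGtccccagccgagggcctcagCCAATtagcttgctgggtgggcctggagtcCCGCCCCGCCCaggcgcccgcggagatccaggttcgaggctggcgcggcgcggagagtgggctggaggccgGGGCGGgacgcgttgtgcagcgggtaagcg
NID1 promoter: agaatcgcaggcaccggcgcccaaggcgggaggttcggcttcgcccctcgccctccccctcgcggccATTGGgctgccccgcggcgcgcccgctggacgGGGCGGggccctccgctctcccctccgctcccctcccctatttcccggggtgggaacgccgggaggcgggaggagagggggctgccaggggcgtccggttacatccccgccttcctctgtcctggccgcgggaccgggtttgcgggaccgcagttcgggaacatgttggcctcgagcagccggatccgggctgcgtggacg
COL12A1 promoter: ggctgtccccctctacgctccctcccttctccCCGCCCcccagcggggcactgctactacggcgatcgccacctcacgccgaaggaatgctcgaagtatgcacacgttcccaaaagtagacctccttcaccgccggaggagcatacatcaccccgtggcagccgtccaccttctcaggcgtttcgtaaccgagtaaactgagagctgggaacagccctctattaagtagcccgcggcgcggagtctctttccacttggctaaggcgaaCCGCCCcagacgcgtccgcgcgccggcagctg
The NID2 window holds 4 GC boxes, of which 2 overlap, and 2 CCAAT boxes. The NID1 window holds 1 of each, and that of COL12A1 holds 2 GC boxes and no CCAAT box. Of 35116 RefSeq promoter windows of this length, 45.0% hold a GC box and 34.6% a CCAAT box. All 3 windows are rich in CpG, with 25 in NID2, 36 in NID1 and 29 in COL12A1, against a median of 14 over all windows. No TATAAA and no TGANTCA, the AP-1 motif, was found in any of them.

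**Figure D2:**
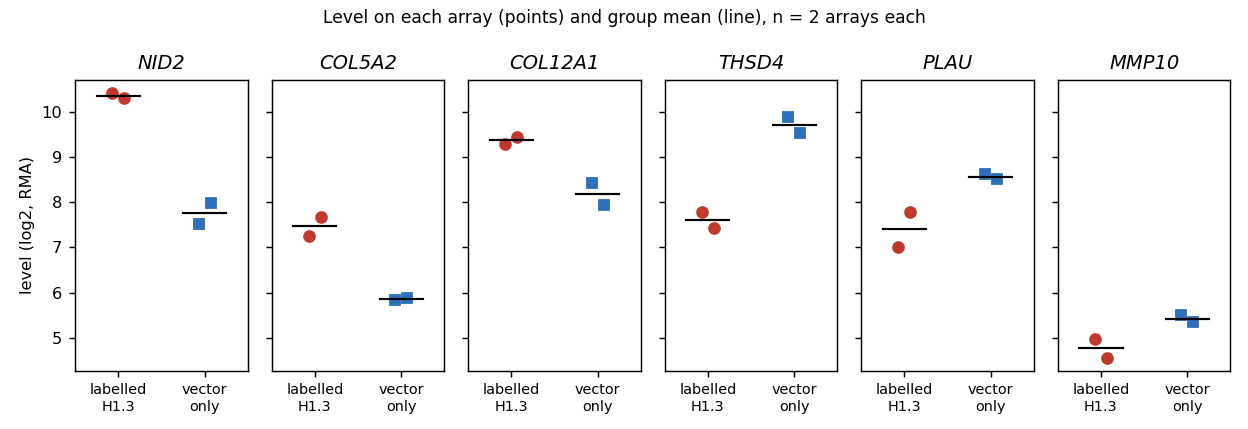
Log2 level on each array (points) and group mean (line) for 6 genes, with the arrays labelled H1.3 left of the vector-only arrays in each panel. In all 6 the groups do not overlap, and for PLAU and MMP10 the difference did not pass the test.

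The laminin chains assemble into trimers of an alpha, a beta and a gamma chain. Of 7 chains measured, 0 passed limma and 1 had an unadjusted p under 0.05, against 11.5% of all clusters. That chain was LAMA4, an alpha chain best known from blood vessels and muscle, at 4.57 and 4.57 in the arrays labelled H1.3 and 5.13 and 4.94 in the vector-only arrays (difference -0.47 ± 0.12, adjusted p 0.178). The groups did not overlap, but the cluster is dim, below the median level on every array. LAMB3, the beta chain of the laminin that anchors epithelia, measured 7.71 and 7.28 in the arrays labelled H1.3 and 7.09 and 7.20 in the vector-only arrays. Its difference was 0.35 ± 0.16 with an adjusted p of 0.477, and it was 0.14 without the first array labelled H1.3.

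LAMA5, LAMB1 and LAMC1, the chains of a main epithelial laminin, had small differences between the groups. LAMA5 measured 9.47 and 9.48 in the arrays labelled H1.3 and 9.15 and 9.35 in the vector-only arrays (difference 0.23 ± 0.12, adjusted p 0.567). Its groups did not overlap. LAMB1 differed by 0.04 ± 0.17 and LAMC1 by 0.14 ± 0.15, each with overlapping groups. LAMB2, the beta chain that replaces LAMB1 in some laminins, differed by 0.12 ± 0.11, and its groups did not overlap. LAMA1, the alpha chain of early embryonic laminin, differed by -0.08 ± 0.23. The 95% intervals of LAMA5, LAMB1, LAMB2 and LAMC1 all lay between -0.35 and 0.52, so changes of 2-fold lie outside them.

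Of 14 collagen chains measured, 2 rose and 12 did not pass. COL5A2 encodes the alpha 2 chain of type V collagen, which nucleates type I fibrils. It measured 7.26 and 7.67 in the arrays labelled H1.3 and 5.83 and 5.89 in the vector-only arrays. The difference was 1.61 ± 0.16 with an adjusted p of 0.0166. In the control cells the cluster was dim, and both arrays labelled H1.3 were above the median level of the named clusters.

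The partner chain of COL5A2 showed no such difference. COL5A1, the alpha 1 chain found in the same type V trimers, measured 6.27 and 6.03 in the arrays labelled H1.3 and 6.10 and 6.20 in the vector-only arrays, a difference of 0.00 ± 0.13 with a 95% interval of -0.31 to 0.31. COL3A1, the type III collagen gene next to COL5A2 on chromosome 2, measured 6.29 and 5.98 in the arrays labelled H1.3 and 6.08 and 6.07 in the vector-only arrays, a difference of 0.06 ± 0.14. The type I collagen genes COL1A1 and COL1A2, the main fibril formers of stroma, differed by 0.10 ± 0.13 and -0.07 ± 0.12. All 4 had overlapping groups, and COL5A1, COL3A1 and COL1A2 were dim, below the median level of the named clusters on every array. A second cluster shared by COL1A2 and another gene differed by -0.04.

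COL12A1 encodes type XII collagen, which sits on the surface of collagen fibrils. It measured 9.29 and 9.44 in the arrays labelled H1.3 and 8.42 and 7.93 in the vector-only arrays. Every array labelled H1.3 was above both controls, by 1.19 ± 0.18 on average with an adjusted p of 0.0477. This call lies close to the threshold and was lost when the arrays were set to 1 median (adjusted p 0.0755), after a further quantile normalization (0.0541) and without the dim clusters (0.0705).

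Type IV collagen, the network former of basement membranes, is encoded by gene pairs that lie head to head. COL4A1 measured 7.41 and 7.40 in the arrays labelled H1.3 and 7.43 and 7.70 in the vector-only arrays, and COL4A2 measured 7.88 and 7.80 in the arrays labelled H1.3 and 7.80 and 8.10 in the vector-only arrays. Both differences were slightly negative, -0.16 ± 0.13 and -0.11 ± 0.14, with adjusted p of 0.731 and 0.838. The other pair, COL4A5 and COL4A6 on chromosome X, differed by 0.14 ± 0.11 and 0.17 ± 0.11, with adjusted p of 0.726 and 0.659. The groups overlapped for COL4A2 but not for COL4A1, COL4A5 or COL4A6. COL4A5 and COL4A6 were dim, below the median level of the named clusters on every array. Within each pair the differences lay within 0.05 of each other, less than their standard errors. Most clusters differed little, with a median absolute difference of 0.12 over all clusters, so nothing is read from this closeness.

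The window of COL4A1 shows how near the starts of one pair lie. It covers chr13:110307108-110307407 (minus strand, GRCh38.p14, RefSeq promoter table), and the capitals mark the 126 bases between the transcript starts of COL4A1 and COL4A2.
COL4A1 promoter: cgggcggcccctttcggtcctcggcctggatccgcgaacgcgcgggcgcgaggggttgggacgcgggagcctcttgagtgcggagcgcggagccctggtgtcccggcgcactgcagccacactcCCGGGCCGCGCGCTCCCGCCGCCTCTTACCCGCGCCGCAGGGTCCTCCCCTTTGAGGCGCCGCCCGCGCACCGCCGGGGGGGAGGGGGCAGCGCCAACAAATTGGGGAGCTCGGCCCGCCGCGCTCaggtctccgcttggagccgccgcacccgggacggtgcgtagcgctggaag
The COL4A1 and COL4A2 windows share 226 of their 300 bases and are read from opposite strands.

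Among the other collagens, COL18A1, whose C-terminal fragment is endostatin, measured 8.26 and 8.18 in the arrays labelled H1.3 and 8.56 and 8.81 in the vector-only arrays. The groups did not overlap and the difference was -0.47 ± 0.13, with an adjusted p of 0.208. The chains of type VI collagen, a filament of the matrix around cells, differed by 0.03 ± 0.14 for COL6A1, 0.04 ± 0.12 for COL6A2 and 0.19 ± 0.12 for COL6A3. COL6A1 and COL6A2, which neighbour each other on chromosome 21, had overlapping groups, and COL6A3 did not.

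Of 10 matrix metalloproteinases, 0 passed limma and 1 had an unadjusted p under 0.05, against 11.5% of all clusters. Of the 10, 9 were below the median level, so most of these differences rest on dim signal. MMP10, the secreted protease stromelysin 2, measured 4.98 and 4.57 in the arrays labelled H1.3 and 5.50 and 5.35 in the vector-only arrays (difference -0.65 ± 0.16, adjusted p 0.153). MMP9, a gelatinase that cuts type IV collagen, measured 5.68 and 5.28 in the arrays labelled H1.3 and 5.20 and 5.03 in the vector-only arrays (difference 0.36 ± 0.16, adjusted p 0.454), and its difference was 0.17 without the first array labelled H1.3 and 0.57 without the second. Groups did not overlap for either gene, and the differences had opposite signs.

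MMP14, the membrane-type protease that activates MMP2, measured 5.70 and 5.41 in the arrays labelled H1.3 and 5.93 and 5.82 in the vector-only arrays (difference -0.32 ± 0.14, adjusted p 0.444). Without the second array labelled H1.3 it differed by -0.18. MMP2, the other gelatinase, measured 6.21 and 6.20 in the arrays labelled H1.3 and 5.40 and 6.39 in the vector-only arrays. Its controls lay on either side of the arrays labelled H1.3, and the difference of 0.31 ± 0.28 turned to -0.19 without the first control. MMP15, a second membrane-type protease and the only one of the 10 above the median level, differed by -0.22 ± 0.13. The collagenases MMP1 and MMP13 differed by -0.23 and 0.20, the stromelysin MMP3 by -0.24, matrilysin (MMP7) by -0.05 and MMP11 by -0.03.

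MMP7, MMP10, MMP1, MMP3 and MMP13 lie in 1 cluster of MMP genes on chromosome 11, and their own differences, of both signs, did not pass. Brighter genes nearby had differences below 0. Of the 20 nearest genes at or above the median level, 10 on each side of MMP10, all 20 were lower in the arrays labelled H1.3, with differences of -0.96 to -0.26 and a median of -0.66. The difference of MMP10 lay inside that range, while MMP1, MMP3, MMP7 and MMP13 lay above it. What these dim MMP clusters share with their neighbours was not tested.

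The neighbours of the genes that passed are given as a description, since these 4 genes were known to be among the most changed. The median difference of the 20 nearest brighter genes was -0.01 for NID2, -0.02 for COL5A2, -0.06 for COL12A1 and -0.03 for THSD4. Single neighbours reached 0.89 near NID2, 0.41 near COL5A2, 0.86 near COL12A1 and 0.86 near THSD4. PLAU had a median neighbour difference of -0.09, and PLAT, on chromosome 8, one of -0.06.

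**Figure D3:**
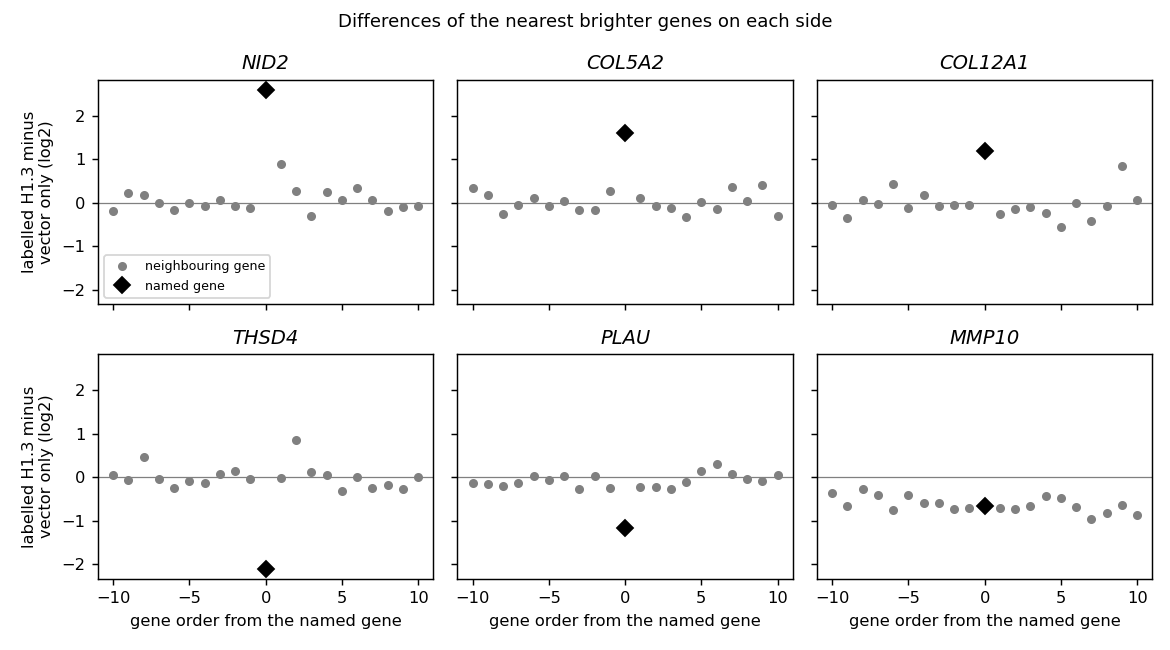
Difference between the groups (log2) for 6 genes (diamonds) and their 10 nearest neighbours on each side with a mean level at or above the median (circles), in the gene order of the RefSeq table. The neighbours of MMP10 all lie below 0, around MMP10 itself, and those of each of the other 5 genes lie on both sides of 0, with medians from -0.09 to -0.01.

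None of the 3 TIMP genes, which encode inhibitors of metalloproteinases, passed limma, and 1 of them had an unadjusted p under 0.05, a level that 11.5% of all clusters reached. TIMP1 measured 7.68 and 8.03 in the arrays labelled H1.3 and 8.49 and 8.25 in the vector-only arrays, lower in both arrays than in either control (difference -0.52 ± 0.16, adjusted p 0.245), and by -0.34 without the first array labelled H1.3. TIMP2 differed by -0.10 ± 0.31 and TIMP3 by -0.34 ± 0.36, and both have wide errors, with replicates far apart. The 2 clusters of TIMP3 gave like differences, -0.34 and -0.27.

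In the plasminogen system, 0 of 4 genes passed limma and 2 had an unadjusted p under 0.05, against 11.5% of all clusters. PLAU, which encodes urokinase, measured 7.01 and 7.79 in the arrays labelled H1.3 and 8.61 and 8.52 in the vector-only arrays. Both arrays labelled H1.3 were lower, by 1.17 on average (difference -1.17 ± 0.24, adjusted p 0.103), but they differed from each other by 0.78. The difference was -0.78 without the first array labelled H1.3 and -1.56 without the second. This was the largest difference among the 44 genes that did not pass.

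PLAT, the tissue-type plasminogen activator gene, ran the other way. It measured 8.45 and 8.22 in the arrays labelled H1.3 and 7.96 and 7.52 in the vector-only arrays (difference 0.59 ± 0.17, adjusted p 0.217), and the difference was 0.38 without the second control. SERPINE2, an inhibitor of both plasminogen activators and of thrombin, measured 6.51 and 7.09 in the arrays labelled H1.3 and 6.38 and 6.44 in the vector-only arrays (difference 0.39 ± 0.19, adjusted p 0.510). The difference was 0.68 without the first array labelled H1.3 and 0.10 without the second. PLAUR, the urokinase receptor gene, differed by 0.12 ± 0.20 with overlapping groups.

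Among the other matrix proteins, THSD4 fell. It encodes a thrombospondin type 1 domain protein of the ADAMTS-like family that binds fibrillin microfibrils. It measured 7.79 and 7.42 in the arrays labelled H1.3 and 9.88 and 9.52 in the vector-only arrays (difference -2.10 ± 0.18, adjusted p 0.00956). Its 95% interval ran from -2.51 to -1.68. The fibrillin genes of the list did not pass: FBN1 differed by 0.18 ± 0.15 and FBN2 by -0.22 ± 0.20. The FBN1 cluster was dim, below the median level of the named clusters on every array. FBN2 remained bright on every array, at 10.07 and 10.38 in the arrays labelled H1.3 and 10.17 and 10.72 in the vector-only arrays. TNC, an adhesion-modulating glycoprotein, differed by -0.34 ± 0.29, SPP1, which encodes osteopontin, by 0.09 ± 0.15, and VCAN, which encodes the proteoglycan versican, by 0.24 ± 0.44.

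**Figure D4:**
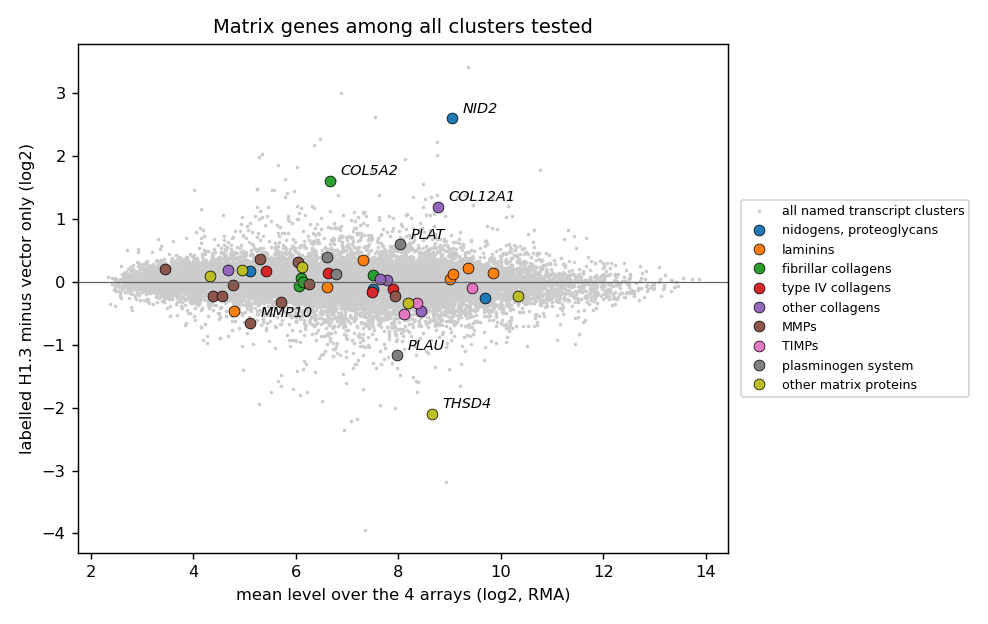
Difference between the groups against the mean level over the 4 arrays, for all 21214 named clusters (grey) and the 48 matrix genes (coloured by role). NID2, COL5A2, COL12A1 and THSD4 lie at the edge of the cloud, and most matrix genes lie within it, at both low and high levels.

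Some matrix genes varied more between the numbered arrays of a group than between the groups. TIMP3 measured 7.74 and 8.67 in the arrays labelled H1.3 and 8.09 and 8.99 in the vector-only arrays, so that the array numbered 2 was higher by 0.93 and 0.90. TIMP2 measured 9.09 and 9.71 in the arrays labelled H1.3 and 9.05 and 9.94 in the vector-only arrays, and VCAN 5.57 and 6.91 in the arrays labelled H1.3 and 5.56 and 6.44 in the vector-only arrays. In these 3 of 48 genes the array numbered 2 was higher by at least 0.5 in both groups, as it was in 0.325% of all named clusters. In 0 of the 48, against 0.273% of all clusters, was it lower by as much in both. The labels do not say that arrays with a number in common shared a culture or day.

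FN1 and LTBP1, matrix genes outside the list, singled out after their values were seen, were also higher on the array numbered 2 in both groups, by more. FN1, which encodes fibronectin, measured 8.06 and 10.78 in the arrays labelled H1.3 and 7.07 and 9.43 in the vector-only arrays. LTBP1, which stores latent TGF-beta in the matrix, measured 6.80 and 8.18 in the arrays labelled H1.3 and 8.38 and 10.10 in the vector-only arrays. The difference between groups was 1.17 for FN1 and -1.75 for LTBP1, with adjusted p of 0.725 and 0.303 in limma without pairing by array number. The groups overlapped for FN1 but not for LTBP1. Cause and origin of the spread between these arrays were not tested.

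**Figure D5:**
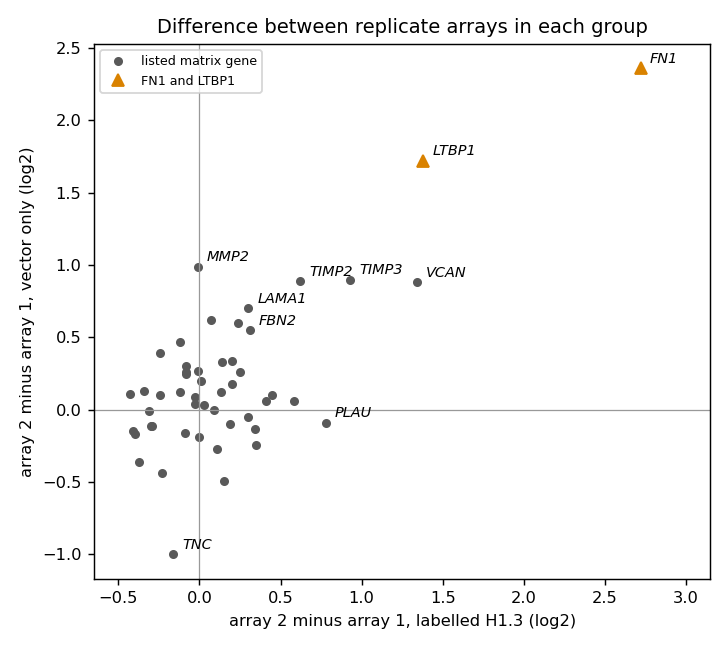
Array 2 minus array 1 (log2) in the arrays labelled H1.3 (horizontal) and in the vector-only arrays (vertical), for the 48 matrix genes (circles) and for FN1 and LTBP1 (triangles). FN1, LTBP1, VCAN, TIMP2 and TIMP3 are higher on array 2 by at least 0.5 in both groups. Other genes, among them HSPG2 and LAMA1, are also higher on array 2 in both groups, but by less than 0.5 in the arrays labelled H1.3.

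Of 134 other matrix genes measured, 0 passed limma and 22 had an unadjusted p under 0.05, which is 16.4% against 11.5% of all clusters, and the median difference was 0.06, against 0.02. These genes cover 17 of basement membranes, 19 collagens, 26 of collagen processing, 31 proteases, 11 inhibitors and 30 elastic or matricellular proteins. Among basement membrane genes FREM2, an extracellular protein of epithelial adhesion, measured 5.04 and 5.41 in the arrays labelled H1.3 and 4.47 and 4.36 in the vector-only arrays (difference 0.81 ± 0.15, adjusted p 0.0887). PXDN, the peroxidase that crosslinks type IV collagen, differed by -0.42 ± 0.15 with an adjusted p of 0.335.

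Collagen processing enzymes had differences of both signs, and none passed. ADAMTS3, a procollagen N-proteinase, differed by 0.78 ± 0.16 (adjusted p 0.111), and PLOD1, a lysyl hydroxylase, by -0.59 ± 0.14 (adjusted p 0.138). Among the proteases CTSB, which encodes the lysosomal protease cathepsin B, measured 10.55 and 10.73 in the arrays labelled H1.3 and 11.32 and 11.82 in the vector-only arrays (difference -0.93 ± 0.18, adjusted p 0.0925). ADAMTS9, a proteoglycan-cutting protease, differed by 0.41 ± 0.12 (adjusted p 0.212). The groups of all these genes did not overlap.

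The inhibitor gene with the smallest p was CST3, which encodes the cysteine protease inhibitor cystatin C, at -0.45 ± 0.12 with an adjusted p of 0.184, followed by SERPINF2, the gene of alpha 2-antiplasmin, at -0.19 ± 0.14. FBLN1, which encodes a fibulin, and BGN, which encodes the proteoglycan biglycan, differed by -0.40 ± 0.12 and -0.45 ± 0.14. Of the 19 collagens outside the list, 17 had differences above 0 and 2 below it. The share of all clusters above 0 was not counted, so nothing is read from these signs. Their median was 0.14, against 0.02 over all clusters, and 13 of the 19 clusters were below the median level. None of the 19 passed limma. An unadjusted p under 0.05 was found for 1 of them, COL21A1, which is 5.26% against 11.5% of all clusters. COL21A1, a fibril-associated collagen, differed by -0.76 ± 0.27 and COL23A1, a transmembrane collagen, by 0.19 ± 0.12, with adjusted p of 0.337 and 0.622. The difference of COL21A1 was -0.30 without the first vector-only array and -1.21 without the second.

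Markers of other cell types were measured beside the matrix genes, and their part in the differences was not tested. The summed log2 level of 10 fibroblast markers was 49.56 to 50.41 in the arrays labelled H1.3 and 50.26 to 51.56 in the vector-only arrays, and 0 of them passed limma. The 10 markers lay between 2.86 and 8.31 on single arrays, with DCN and LUM between 2.86 and 3.46. S100A4, a calcium-binding protein gene that other cell types express too, was the only 1 of the 10 above the median level of the named clusters. It measured 7.39 and 7.63 in the arrays labelled H1.3 and 8.18 and 8.31 in the vector-only arrays (difference -0.74 ± 0.13, adjusted p 0.0821), and it alone of the 10 had an unadjusted p under 0.05. For 10 endothelial markers the sums were 51.74 to 52.62 in the arrays labelled H1.3 and 52.16 to 52.36 in the vector-only arrays, and for 9 leukocyte markers 46.65 to 48.12 in the arrays labelled H1.3 and 46.57 to 47.28 in the vector-only arrays. The summed level of the 14 ovarian epithelial markers was 143.25 to 143.63 in the arrays labelled H1.3 and 143.79 to 145.57 in the vector-only arrays. None of the 14 passed limma, and 2 had an unadjusted p under 0.05. These were EPCAM at -0.57 ± 0.12 (adjusted p 0.111) and MSLN, which encodes mesothelin, at -0.49 ± 0.15 (adjusted p 0.232), and for both the groups did not overlap. RMA values have no true zero, so a low value here says only that a cluster was dim.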

How the data were processed

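RNA from 4 samples of OVCAR-3 cells was hybridised to Affymetrix arrays, and the authors deposited log2 values, 1 per transcript cluster and array. The submitters' processing notes name RMA and Affymetrix Expression Console, with no versions. As published, RMA subtracts background, equalises the arrays and summarises probes, so single probes and saturation could not be examined here. The series text names an exon array, but the identifiers matched a gene array's annotation, and no source used here gives its genome build.

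Of 33297 clusters, 19460 had 1 symbol, 1754 several and 12083 none. Symbols were updated to the RefSeq table of GRCh38.p14 (19429 matched). A gene with several clusters is given by the one of highest mean. The fit used limma 3.58.1 (lmFit, eBayes, no covariate; R 4.3.3) on the 21214 clusters with a symbol, with 2 residual and 5.16 prior degrees of freedom. The number of arrays limits the precision (median standard error 0.13). The labels do not say that replicates were separate transfections, so p-values cover only the spread between these samples, which may be technical.

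The genes and lists were chosen with earlier results of these data known. Array values are given for genes that passed and for a choice of others, which did not follow the smallest p in every role. For the rest differences are given. Of the other matrix lists, any gene that passed and the 2 with the smallest p are named. Neighbours are the 10 nearest measured genes on each side in RefSeq order with a mean level at or above the median. Promoter windows were found for 36 of the 50 genes. On simulated data for this comparison over 21214 clusters, 77% of 200 clusters changed 2-fold and 100% of 200 changed 4-fold were called, with 10 and 8 false calls, and 0 with no change. Simulated clusters varied independently, with normal noise and variances drawn from the fitted prior. The 200 changed clusters all had the same size of change, so these shares need not hold for the arrays here. Alternatives changed the moderation, scaling, filter, clusters tested, threshold and replicates. Plots were made in matplotlib 3.10.9 (Python 3.11.15).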

Additional observations from a re-analysis of the deposited data

How the results depend on the processing

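The differences of NID2, COL5A2, COL12A1 and THSD4 kept their direction under every alternative run for them, but not their calls. Among all named clusters, 51 were higher and 56 lower. Robust trended moderation gave 107 and 138, a further quantile normalization 29 and 38, and equal array medians 19 and 31. Leaving out the clusters below the median level gave 6 and 19, testing all transcript clusters 1 and 3, and an adjusted p under 0.10 gave 135 and 176. The leave-one-out fits gave 0 to 0 for both. In them the single array left in a group was taken to have the spread of its counterpart, so they cannot show which calls hold. Of the matrix genes, 3 higher and 1 lower became 1 and 1 without the dim clusters, a filter that removes COL5A2 from the test. They became 0 and 0 with all transcript clusters and 0 to 0 without each array. With all transcript clusters the adjusted p was 0.0738 for NID2, 0.151 for COL5A2, 0.217 for COL12A1 and 0.107 for THSD4. In the leave-one-out fits it lay between 0.433 and 0.802, with differences of 2.36 to 2.83 for NID2, 1.40 to 1.81 for COL5A2, 0.95 to 1.44 for COL12A1 and -2.28 to -1.91 for THSD4, and 1292 to 2367 clusters had an unadjusted p under 0.05. The cause of these shifts was not tested.

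With a replicate block from the array numbers, limma called 0 clusters higher and 0 lower, 2195 had an unadjusted p under 0.05, and 0 matrix genes were called in either direction, with adjusted p of 0.117 for NID2, 0.128 for COL5A2, 0.213 for COL12A1 and 0.112 for THSD4. The standard error of TIMP3 was 0.11 with the block and 0.36 without it. Over all clusters, array 1 minus array 2 correlated at 0.06 between the groups, and array numbers were not treated as pairs. A correlation over all clusters cannot decide pairing for single genes such as TIMP2, TIMP3, VCAN, FN1 and LTBP1, which were higher on array 2 in both groups.

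COL5A1 differed by 0.00, so it had no sign to change, and ran from -0.12 to 0.12 without each array in turn. With COL5A1 counted among them, 30 of the 48 matrix genes did not change sign in these fits, and 18 that had not passed did. Their differences ran from -0.02 to 0.37 for NID1, -0.42 to 0.18 for HSPG2, -0.43 to 0.27 for LAMA1, -0.18 to 0.27 for LAMB1, -0.03 to 0.23 for COL1A1, -0.095 to 0.22 for COL3A1, -0.26 to 0.04 for COL4A2, -0.13 to 0.18 for COL6A1, -0.02 to 0.10 for COL6A2. They ran from -0.19 to 0.81 for MMP2, -0.19 to 0.085 for MMP7, -0.54 to 0.35 for TIMP2, -0.80 to 0.13 for TIMP3, -0.19 to 0.44 for PLAUR, -0.84 to 0.16 for TNC, -0.08 to 0.25 for SPP1, -0.43 to 0.91 for VCAN and -0.50 to 0.055 for FBN2. No sign changed under the other alternatives. Probe signals were not used here, so what a dim cluster could show was not examined.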
